A study of Mus musculus with 3 samples.

Results

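The Rab GTPase genes of mouse were examined in ribosome footprints of primary cortical neurons. Members were the protein-coding genes whose symbol is Rab followed by a number and, where present, a letter, and each gene was represented by its longest annotated transcript with both UTRs and a CDS. All 59 Rab genes of the annotation met this rule, out of 20823 genes measured in the same way. They lie on 18 chromosomes, 4 of them on the X chromosome. The symbol alone chose the members, and no measured value entered the rule.

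The cells were neurons cultured from embryonic cortex of CD-1 mice, with no genetic change in any group. WT neurons received no drug. Chx neurons were exposed for 2 min to cycloheximide, which stalls ribosomes during elongation. Harr neurons were exposed for 2 min to harringtonine, which holds ribosomes at the start codon while ribosomes already under way run off, followed by a cycloheximide pulse. Every group is 1 library from 3 pooled dishes, and the buffers of all 3 libraries contained cycloheximide at 100 µg per ml, so that WT is not free of the drug after harvest. The free-text sample descriptions speak of other fractions and of depolarized cells, against the titles and treatments of the same samples, and the titles and treatments were followed here. With 1 library per treatment no difference below has a replicate check and no test was made. Intervals and standard errors (SE) are computed from read counts and cover counting error only.

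Rab proteins are small GTPases that give membranes their identity. A Rab is held at its membrane by prenyl groups added by a geranylgeranyl transferase together with an escort protein, it is switched on when an exchange factor (GEF) replaces GDP by GTP, and it is switched off when a GTPase-activating protein (GAP) speeds up hydrolysis. GDP dissociation inhibitors (GDI) extract the inactive form and return it to the cytosol. In the GTP form a Rab recruits effectors such as tethers, motors and kinases. In neurons the Rab3 proteins sit on synaptic vesicles, and other Rabs direct endosomes, Golgi carriers and lysosomes along axons and dendrites.

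The libraries held 35722483 (Chx), 9754412 (Harr) and 30219197 (WT) reads, of which 60.2% to 63.2% lay on the transcripts used. Of the markers fixed for 4 cell types, the 8 neuronal ones summed to 9320 CPM in WT, 8875 in Chx and 10951 in Harr, where CPM stands for CDS reads per 1000000 CDS reads of all genes. Map2 alone gave 7505 of the CPM in Harr and 3667 in Chx, and the other 7 neuronal markers were lower in Harr than in Chx, with a median log2 ratio of -0.54 over the 8. The 4 astrocyte markers summed to 386, 345 and 204, the 4 microglia markers to 4.86, 4.95 and 3.71, and the 4 oligodendrocyte markers to 10.4, 11.5 and 5.56, with the myelin genes Mog and Mobp at 0 reads in every library. The part of the astrocytes in the Rab values below was not tested. In pooled dishes, fewer cells of a type and less RNA per cell cannot be told apart, and a footprint count does not separate the amount of an mRNA from the number of ribosomes on it.

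The Rab genes were well represented among translated genes, and a few of them carried most of the footprints. Levels between genes are given as RPKM, CDS reads per kilobase of CDS and per 1000000 reads of the library. The median Rab gene had a CDS level of 25.03 RPKM in WT, 22.7 in Chx and 12.1 in Harr, against 1.91, 2.03 and 1.33 over all 20823 genes. Genes with a CDS of 500 to 900 nucleotides had medians of 1.52, 1.58 and 0.712. The 67 other small GTPases had 25.1, 31.6 and 16.7, so a high level was not particular to the Rabs. In WT, 19 of the 59 members were among the 10% of genes with the highest level, 36 reached 10 RPKM and 12 were below 1 RPKM. The 5 highest members held 47.8% of the summed Rab RPKM in WT, and the 12 highest held 76.6%.

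Rab3a, the main Rab of synaptic vesicles, stood at the top in all libraries. Its CDS held 15063 reads in WT, 20715 in Chx and 1500 in Harr, or 752, 875 and 232 RPKM. That was 17.6% of the summed Rab RPKM in WT, and the next member was below it in each library. Rab6a (340 RPKM in WT), which acts in traffic at the Golgi, Rab3c (329), a second Rab of synaptic vesicles, and Rab6b (327), the brain form of Rab6, followed, and the counting intervals of neighbours in this order overlapped. Rab1a (296), needed for transport from the endoplasmic reticulum (ER) to the Golgi, Rab11a (287), of recycling endosomes, and Rab7 (275), of late endosomes and lysosomes, formed the next step, again with overlapping intervals between neighbours. Rab14 (154), Rab10 (143), Rab3b (143), Rab2a (124) and Rab5c (107) completed the 12 highest members, of which Rab14 serves endosomes, Rab10 serves exocytosis, Rab2a serves the early secretory pathway and Rab5c serves early endosomes. Among these 5 only Rab10 and Rab3b had overlapping intervals.

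**Figure D1:**
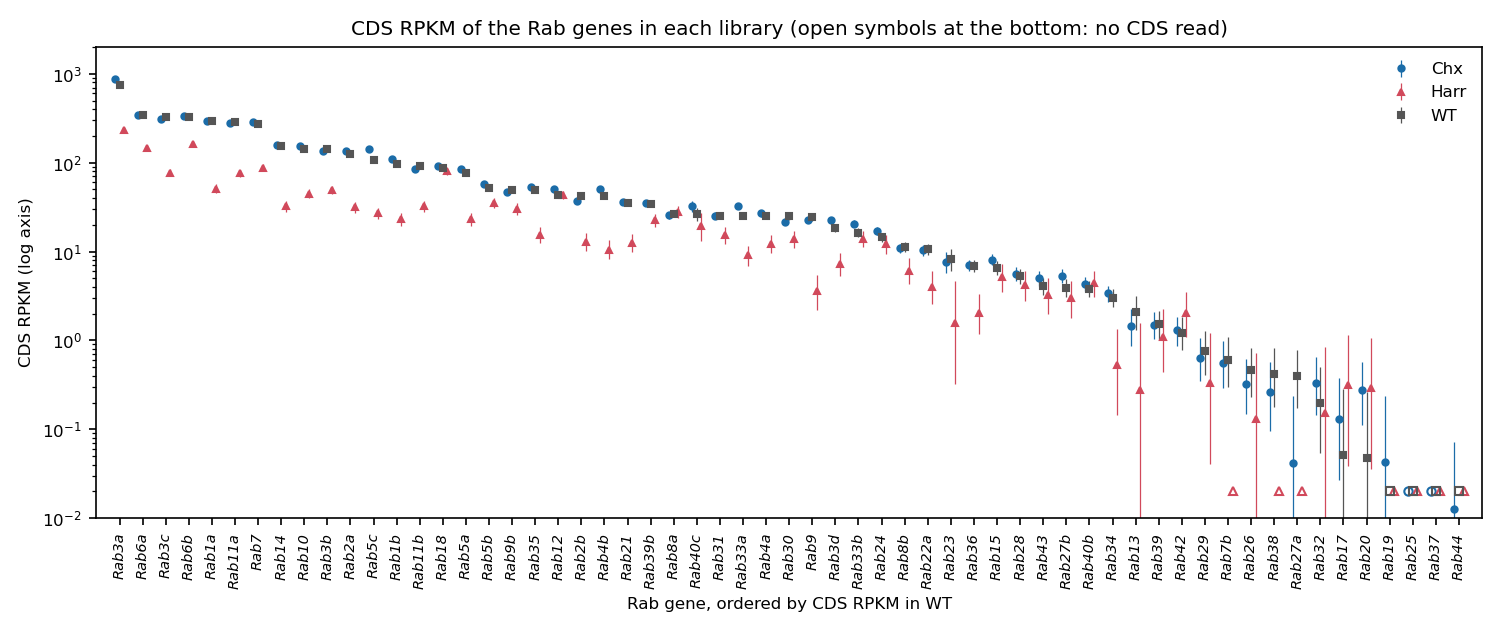
CDS level of each Rab gene (x axis, ordered by WT) in RPKM on a log axis, for the Chx (circles), Harr (triangles) and WT (squares) libraries, with exact Poisson 95% counting intervals. Rab3a is highest at 752 RPKM in WT, Chx and WT values lie close together along the order, and most Harr values lie below both. Open symbols mark members with no CDS read in that library.

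Grouped by the compartment that each Rab is best known for, the ER and Golgi Rabs and the secretory vesicle Rabs together held most of the Rab footprints. The 16 ER and Golgi members summed to 1626 (Chx), 928 (Harr) and 1624 (WT) CPM. The 8 secretory vesicle members summed to 1594, 636 and 1510, nearly all from Rab3a, Rab3b and Rab3c. The 8 recycling endosome members summed to 751, 307 and 769, the 8 late endosome and lysosome members to 470, 293 and 464, and the 8 early endosome members to 422, 199 and 368. The 4 members of post-Golgi exocytosis (Rab8a, Rab8b, Rab10 and Rab13) summed to 204, 125 and 200, and the 7 others to 45.3, 48.5 and 40.6. All 59 members summed to 4976 in WT, 5112 in Chx and 2535 in Harr. The Harr sum was the lowest in every group except the last, where it was the highest.

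Some members were hardly translated in these cultures. Rab25, an epithelial relative of Rab11, and Rab37 had no CDS read in any library on the transcripts used. The most-read transcript of Rab37 had 1, in Chx. At these depths 3 counts, the limit that a count of 0 allows, equal 0.148 CPM in Chx, 0.795 CPM in Harr and 0.180 CPM in WT. Rab19 and Rab44 had 1 CDS read each, both in Chx. Rab7b had 11 CDS reads in WT, 12 in Chx and 0 in Harr. Rab38, a Rab of melanosomes, had 8, 6 and 0, and Rab27a, which also carries melanosomes and secretory granules, had 8, 1 and 0. In Harr, the shallowest library, such counts do not separate these genes from the level seen in the other two. Of the 59 members, 50 reached 10 CDS reads in WT, 49 in Chx and 43 in Harr.

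Most genes that carry the same Rab number encode close paralogs, and in most of the 14 such groups 1 paralog dominated. Of the summed RPKM of the group in WT, Rab3a held 60.5%, Rab3c 26.5%, Rab3b 11.5% and Rab3d 1.49%. Rab7 held 99.8% of its group, Rab39b 95.7% and Rab27b 90.8%. Rab1a held 75.3%, Rab11a 75.7% and Rab2a 74.6%, while Rab6a (50.98%) and Rab6b (49.0%) were close to even. In the Rab5 group, which runs early endosomes, Rab5c held 45.6%, Rab5a 32.6% and Rab5b 21.8%.

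The split between paralogs was another in Harr in several groups. Rab5b held 20.2% of the Rab5 group in Chx and 41.3% in Harr, where it was the highest of the group. Rab4a held 34.9% of the Rab4 group in Chx and 53.6% in Harr, and Rab33b held 38.4% of its group in Chx and 60.4% in Harr. Rab6a held 51.04% of its group in Chx and 47.3% in Harr, below Rab6b. Rab9 held 32.8% of its group in Chx and 10.6% in Harr, below Rab9b in both. In Harr, 166 of the 222 CDS reads of Rab5b, 42 of the 78 of Rab4a and 69 of the 93 of Rab33b lay in the segment of the start codon. Beyond that segment Rab5b had 56 reads, against 76 in Rab5c and 72 in Rab5a, so that it was then the lowest of its group. Rab4a had 36 reads there against 66 in Rab4b, and Rab33b had 24 against 25 in Rab33a, so that neither was then above its paralog. The start-codon segment of Rab4b, of 16 nucleotides, held 0 reads in every library. Several of these levels rest on reads that other transcripts could share. Of the 25-nucleotide words of the CDS, 95.6% of Rab11b are also found in the pseudogene Rab11b-ps2, or in another gene. The shared part was 93.5% for Rab4b, 84.0% for Rab5b, 69.2% for Rab7, 67.8% for Rab43, 45.9% for Rab2a and 45.2% for Rab9. It was 42.5% for Rab8b, 31.6% for Rab5a, 26.4% for Rab6a and 13.2% for Rab11a, which completes the 11 members above 10%. The values of these genes are uncertain to that extent, since the study describes more than one alignment, with reads of many hits kept in one of them, and does not say which one these tables come from.

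**Figure D2:**
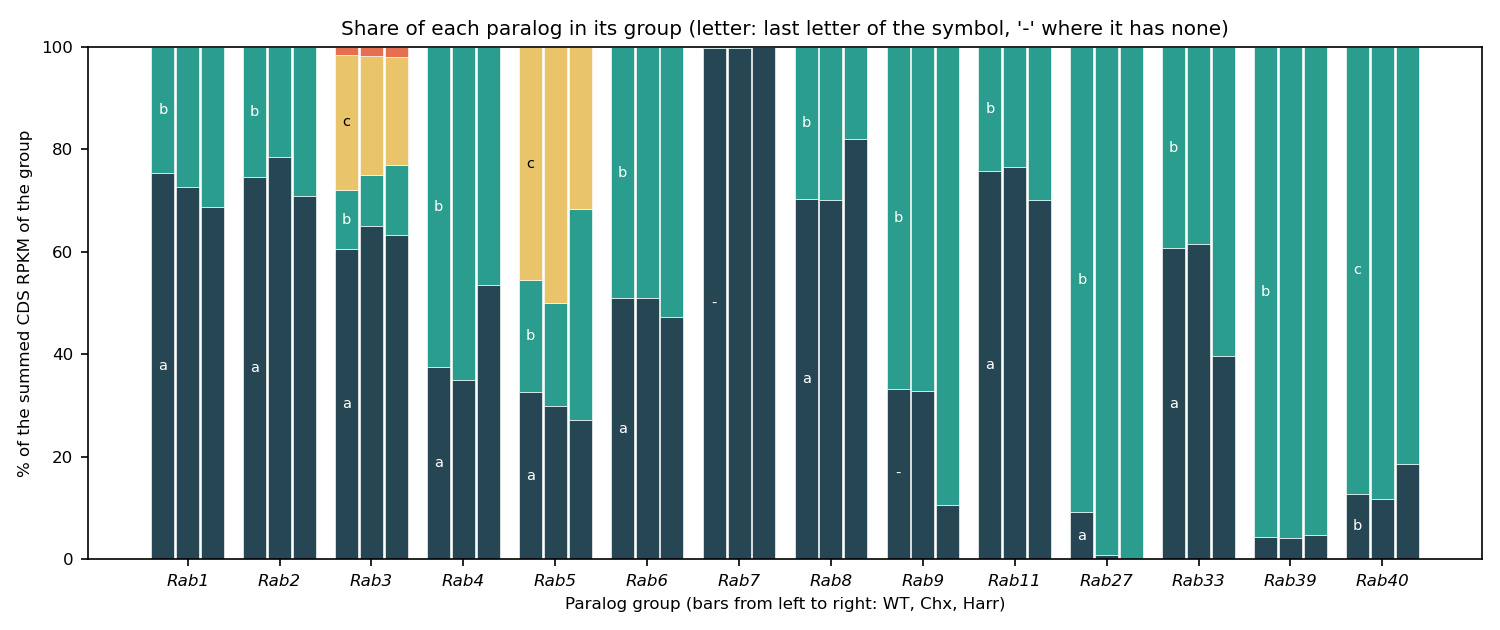
Share of each paralog (y axis, percent of the summed CDS RPKM of its group) in the 14 groups of Rab genes with the same number, with bars for WT, Chx and Harr from left to right. Colours separate the paralogs from the first letter at the bottom to the last at the top, and the unlabelled top stripe of the Rab3 group is Rab3d. WT and Chx bars are alike in most groups, with a difference in Rab27, where Rab27a has 9.19% in WT and 0.783% in Chx. Rab4, Rab5, Rab8, Rab9 and Rab33 are among the groups with another split in Harr.

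The next comparison asked where on the Rab transcripts the footprints lay. Reads were counted at their 5′ end, so that a ribosome on the start codon is counted in the 5′ UTR. In WT, 8.40% of the Rab reads (Wilson 95% interval 8.22 to 8.58) lay in the 5′ UTR, 89.3% in the CDS and 2.32% in the 3′ UTR. Chx had 15.6% (15.4 to 15.8), 82.9% and 1.51%. Harr had 65.0% (64.5 to 65.5), 30.0% and 5.00%. Over all genes the 5′ UTR share was 6.14% in WT, 8.71% in Chx and 33.5% in Harr, and in Harr it was 53.6% for genes with a CDS of 500 to 900 nucleotides and 61.2% for other small GTPases. The 3′ UTR share depends on the transcripts. Rab40c alone gave 832 of the 1886 3′ UTR reads in Chx, at positions that are CDS on its most-read transcript, and on the most-read transcripts of all members the share was 0.828% in Chx. In the 46 members without UTR overlap it was 0.644% in Chx and 1.36% in WT. Most Rab reads of the Harr library lay upstream of the CDS, as did most reads of those other short genes, and the Rab CDS is short, with a median of 648 nucleotides against 1146 for all genes.

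Per nucleotide, the Rab 5′ UTRs carried 0.230 times the read density of the CDS in WT, 0.458 times in Chx and 5.29 times in Harr. The corresponding ratios over all genes were 0.419, 0.608 and 3.36. These ratios pool reads and annotated lengths over genes and are not averages of genes. In them the Rab 5′ UTRs were lower than all genes in WT and Chx, and higher in Harr. The share of reads in the 5′ UTR, which takes no account of length, was higher in the Rabs also in WT (8.40% against 6.14%) and Chx (15.6% against 8.71%). Pooled densities were not computed for genes of similar CDS length.

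For each gene the odds of a read lying in the 5′ UTR rather than the CDS were compared between 2 libraries, on the log2 scale. This 5′ UTR odds ratio was above 0 in 46 of 46 members for Harr against Chx, with a median of 3.28 (95% interval of the median over members 2.75 to 3.71) and a range from 1.10 to 5.03. All genes had a median of 2.46, and genes with a CDS of 500 to 900 nucleotides, a class that holds 55 of the 59 Rab genes, had 3.12. A gene was counted as past the fold when its log2 value was at least 1 in size and its 95% counting interval excluded 0. In this comparison 44 of 46 members were past the fold and higher in Harr, where the background was 88.8% of all genes, and 0 were lower, where it was 0.12%. For Harr against WT the median was 4.2 (3.66 to 4.77) against 3.23 over all genes and 3.88 in the length class, with 44 of 45 members past the fold (background 93.7%) and 0 lower (background 0.135%). The count of members is near the background in both comparisons.

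Among single members the contrast was largest for Rab9, a Rab of transport from late endosomes to the Golgi. Its 5′ UTR held 49 reads in WT, 109 in Chx and 156 in Harr, while its CDS held 449, 491 and 21. The CDS count was low in Harr and the 5′ UTR count was not, and the odds ratio was 5.03 (SE 0.37) against Chx and 6.05 (SE 0.40) against WT. Rab1a followed against Chx with 4.77 (SE 0.11), on 355 reads in WT, 670 in Chx and 874 in Harr in the 5′ UTR and 5445, 6329 and 302 in the CDS. In both genes a part of a UTR overlaps a CDS of another transcript. Rab1b, with few 5′ UTR reads (15 in WT, 19 in Chx and 27 in Harr), had 4.60 (SE 0.45). Against WT, Rab3b (5.85, SE 0.20) and Rab4b (5.58, SE 0.33) came next after Rab9.

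At the other end stood Rab40b, which belongs to the Rabs that join ubiquitin ligase complexes, with 1.10 (SE 0.72), Rab15 with 1.499 (SE 0.32) and Rab43 with 1.99 (SE 0.47) for Harr against Chx. The 5′ UTR of Rab15, a Rab of recycling endosomes, already held 257 reads in Chx beside 185 in the CDS, or 55.7% of its reads. In Harr it held 127 beside 32 and in WT 39 beside 127, so that Rab15 was high in both drug libraries. Against WT the lowest values were those of Rab29 (1.85, SE 1.13), on 11 5′ UTR reads in Harr and 18 in WT, Rab18 (2.25, SE 0.22), known for lipid droplets and the ER, and Rab27b (2.33, SE 0.54). These orders depend on the transcript too, since on its most-read transcript Rab27b was at 3.56 against WT, and Rab28 was at 1.91 against WT and 1.48 against Chx.

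The share of a gene's reads that lay in its 5′ UTR in Harr ran from 14.0% in Rab40b to 88.6% in Rab10 and Rab34, among members with enough reads to be drawn. Of the 47 members with at least 10 reads in Harr, 33 had more than 50% of them in the 5′ UTR. The same count was not made over all genes. The pooled share in Harr was above 50% also in the length class (53.6%) and in other small GTPases (61.2%), so the count is not a trait of the Rabs. Rab10 had 33.8% in Chx and 16.7% in WT, and Rab2a had 40.3%, 87.9% and 23.0% in Chx, Harr and WT. Low shares in Harr belonged also to Rab40c (14.4%, on the short CDS described below), Rab1b (14.5%), Rab11b (15.3%), Rab12 (16.5%) and Rab18 (17.8%). The annotated 5′ UTR of Rab12 is 15 nucleotides long. In Rab11b the 5′ UTR held 40 reads in Harr beside 206 in a CDS of which 95.6% of the words are shared.

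**Figure D3:**
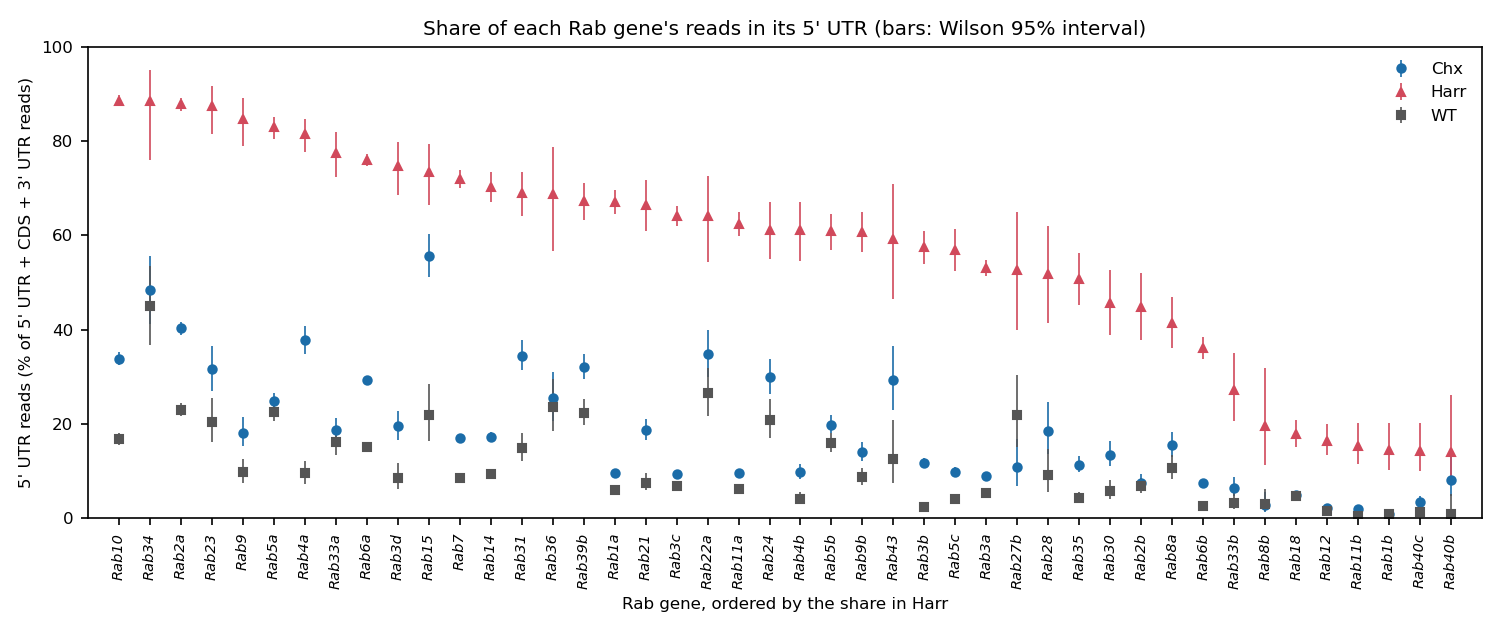
Share of the reads of each Rab gene that lie in its 5′ UTR (y axis, percent of 5′ UTR, CDS and 3′ UTR reads together) in Chx, Harr and WT, with Wilson 95% intervals, ordered by Harr. Drawn are the 44 members with at least 100 reads over the 3 libraries and at least 10 in each region in Harr and Chx together. Harr is the highest library in each gene drawn, from 88.6% in Rab10 down to 14.0% in Rab40b.

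The sequence around the annotated start codon is shown for the members with the largest and the smallest odds ratios for Harr against Chx and for the 3 with the highest level in WT. The sequences are those of the transcripts used (GENCODE M21, build mm10, mRNA strand, 5′ to 3′), with the start codon in capitals after 12 nucleotides of 5′ UTR.
Rab9: acattattaataATGgca
Rab1a: gacatgtccagcATGaat
Rab1b: accgctgccgccATGaac
Rab40b: ggctgggccggcATGatg
Rab15: tgagtccctgccATGgcg
Rab43: tcccgcggagccATGgcg
Rab3a: cgcctcccgcagATGgct
Rab6a: tccggctccatcATGtcc
Rab3c: catttgcctacaATGaga
These transcripts lie at chrX:166457253-166479867 (Rab9, minus strand), chr11:20201432-20226856 (Rab1a, plus), chr19:5099205-5107072 (Rab1b, minus), chr11:121356125-121388251 (Rab40b, minus), chr12:76797960-76822553 (Rab15, minus), chr6:87788853-87811779 (Rab43, minus), chr8:70755510-70758635 (Rab3a, plus), chr7:100607586-100641268 (Rab6a, plus) and chr13:110054187-110280150 (Rab3c, minus). A purine in the third base before the ATG, part of the context described by Kozak, was present in 52 of 59 members (88.1%) and in 84.0% of 20663 genes with a matching transcript sequence. A G directly after the ATG was present in 33 members (55.9%) and in 49.2% of the genes, and both were present in 29 members (49.2%) and 40.9% of the genes. The lines above show both at either end of the order. Rab9, with the highest odds ratio, and Rab15 and Rab43, with low ones, had the purine and the G, while Rab1a, Rab1b and Rab40b had the purine without the G. The Rab 5′ UTRs had a median length of 236 nucleotides and a GC content of 66.8%, against 177 nucleotides and 59.8% for the genes.

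Upstream ATGs were searched in the same transcripts as the letters ATG anywhere in the 5′ UTR, on the mRNA strand only. Of the 59 members, 29 had at least 1 (49.2%), against 55.4% of the genes. They had 66 in all, of which 56 were followed by an in-frame stop codon inside the 5′ UTR, 9 ran into the CDS in another frame and 1 was in frame with the CDS. The in-frame one lies in Rab1a, 9 nucleotides before the annotated start, and is the atg in small letters in the line for Rab1a above. In the 22 members with an upstream ATG and enough reads, the median 5′ UTR density was 0.399 times the CDS density in WT (95% interval 0.192 to 0.831), and in the 24 without one it was 0.239 times (0.122 to 0.440). The intervals overlapped. The median odds ratio of Harr against Chx was 3.09 (2.39 to 4.12) with and 3.33 (2.93 to 3.76) without an upstream ATG. Across 46 members, WT 5′ UTR density and number of upstream ATGs had a Spearman's rho of 0.23 and a Pearson's r of 0.12, and density and 5′ UTR length had -0.10 and -0.00374, as a description over genes that share their libraries.

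The members with the densest 5′ UTR in WT were Rab29, Rab34 and Rab27b, at 2.60, 1.16 and 1.14 times the density of their CDS on the transcripts used. On the most-read transcripts Rab27b was at 0.348 times and Rab28 at 1.79 times, so this order depends on the transcript. Rab29, a regulator of the kinase Lrrk2, had only 18 reads in the 5′ UTR and 14 in the CDS in WT. Rab34, of the Golgi and of ciliary membranes, had 59 and 71, on a 5′ UTR of 558 nucleotides. Rab27b had 24 and 78, and its upstream ATG, 67 nucleotides before the start, is followed by a stop after 2 codons and is not printed. The upstream ATGs of Rab29 and Rab34 (in capitals, with 9 nucleotides before and 12 after) are shown because these 5′ UTRs were read more densely than the CDS in WT.
Rab29, 169 nucleotides before the start: cacggttcaATGctggcgagcgac
Rab29, 102 nucleotides before the start: agggtggagATGcctgacttcaat
Rab34, 415 nucleotides before the start: ctctctgttATGgtagggccatcc
The ones of Rab29 at chr1:131867240-131872887 (plus strand) end at a stop codon after 24 and 16 codons, inside the 5′ UTR. The one of Rab34 at chr11:78188779-78192188 (plus strand) runs 188 codons to its stop and overlaps the CDS in another frame. Part of a UTR of Rab34 also overlaps a CDS of another transcript on the same strand, as it does in 13 members.

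The choice of transcript moved the values of some members, since 10 had another transcript with more reads. For Rab3a that transcript has a 5′ UTR of 165 nucleotides, without the upstream ATGs of the longest one (346 nucleotides, 7 upstream ATGs). It held 1132 5′ UTR reads in WT, 4048 in Chx and 3603 in Harr, against 865, 2035 and 1791 on the longest transcript, with the same CDS reads. The longest transcript of Rab40c holds a CDS of 171 nucleotides and the most-read one a CDS of 846, on which the CDS reads were 771 in WT, 1020 in Chx and 139 in Harr. On their most-read transcripts Rab26 had 18, 33 and 5 CDS reads in place of 11, 9 and 1, and Rab13 had 33, 35 and 6 in place of 23, 19 and 1. The transcripts used for Rab13 and Rab23, with a CDS of 366 and 195 nucleotides, are also well below the median length of the members.

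Where the 5′ UTR is split over exons, the pooled reads of all 3 libraries were denser in the exon of the start codon than before it. In 18 members with at least 2 exons in the 5′ UTR, the part in the start exon (846 nucleotides in all) was read at 0.828 times the CDS density in WT, 1.19 times in Chx and 15.6 times in Harr. The exons before it (4646 nucleotides) had 0.137, 0.282 and 3.62 times. Of 13 such members with at least 10 5′ UTR reads in Harr, 11 had the higher density in the start exon, and Rab9 and Rab29 did not. In Rab9 the 30 nucleotides of 5′ UTR in the start exon held 3 reads in Harr, and the exons before it held 134 reads on 328 nucleotides and 19 on 28. Its paralog Rab9b went the other way. Its first exon (363 nucleotides) held 34 reads in WT, 80 in Chx and 176 in Harr, and the 42 nucleotides of 5′ UTR in the start exon held 51, 78 and 120.

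Relative to all CDS reads, the Rab coding regions had fewer footprints in Harr than in the other libraries. The CDS ratio is the log2 ratio of CPM, over the 44 members whose CDS reads in the 3 libraries added up to 100 or more. For Harr against Chx its median was -0.88 (95% interval -1.21 to -0.27), with a range from -2.09 to 0.67, and 6 members were above 0. The median of all 11459 genes measured was -0.05, and that of genes with a CDS of 500 to 900 nucleotides was -0.66, which lies inside the interval of the Rab median. Of the 44 members 18 were past the fold and lower in Harr, where the background was 13.7% of all genes, and 0 were past it and higher, where the background was 4.63%. In the length class 644 of 2027 genes were past the fold and lower. Without the segment of the start codon the Rab median was -1.32, and 27 of 40 members were past the fold and lower, beside 20.6% of all genes. The length class was not computed without that segment, so the part of CDS length in this contrast was not tested. For Harr against WT the median was -0.91 (-1.15 to -0.33), against 0.00 for all genes and -0.69 for the length class, with 20 members past the fold and lower (background 14.3%) and 0 higher (background 5.3%).

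The reference of the ratio matters for its level. Relative to the CDS reads of the 13 mitochondrially encoded genes, the median of all genes for Harr against Chx shifted to -1.43 and that of the Rab genes to -2.26, with 0 of 44 members above 0. A scaling moves every gene by the same amount, so the distance of the Rab median from that of all genes, -0.83, is the same under each by construction.

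Rab9 had the lowest ratio for Harr against Chx, -2.09 (SE 0.32), on the counts given above. Rab1a was at -1.97 (SE 0.08) and Rab34 at -1.97 (SE 0.70), on 71 CDS reads in WT, 94 in Chx and 4 in Harr. The same 3 were the lowest against WT, at -2.24, -2.03 and -1.85. All 3 lay below the median of the length class, and the SE of Rab34 is wide. Rab3a, with the most reads, was at -1.37 (SE 0.04) against Chx and -1.18 (SE 0.04) against WT.

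The highest ratios were those of Rab8a, Rab40b and Rab18. Rab8a, a Rab of exocytosis and of primary cilia, had 501 CDS reads in WT, 569 in Chx and 169 in Harr, and a ratio of 0.67 (SE 0.13) against Chx, which was -0.71 relative to the mitochondrially encoded CDS reads. Rab40b had 97, 130 and 36 reads and 0.58 (SE 0.27), and Rab18 had 1648, 2022 and 484 reads and 0.36 (SE 0.07), which were -0.80 and -1.02 on that other scale. Against WT, Rab40b (0.73, SE 0.28), Rab8a (0.58, SE 0.13) and Rab12 (0.49, SE 0.09) were the highest, and all 3 were below 0 relative to mitochondrially encoded reads.

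**Figure D4:**
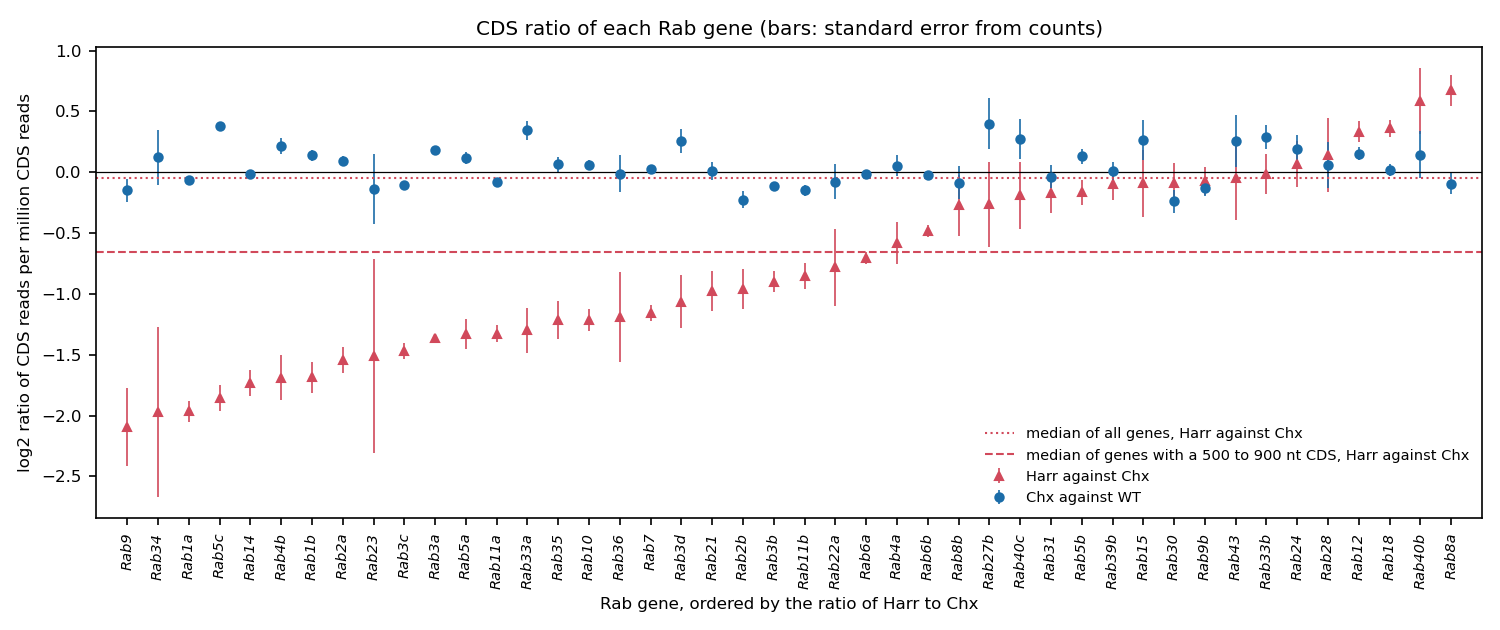
log2 ratio of CPM (y axis) for Harr against Chx (triangles) and Chx against WT (circles) in the 44 Rab genes with enough reads, with standard errors from counts. The dotted line is the median of all genes (-0.05) and the dashed line that of genes with a CDS of 500 to 900 nucleotides (-0.66), both for Harr against Chx. Harr against Chx runs from -2.09 in Rab9 to 0.67 in Rab8a, and Chx against WT stays between -0.24 and 0.40.

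By compartment, the median of Harr against Chx was -1.22 for 7 recycling endosome members, -1.07 for 5 secretory vesicle members, -0.88 for 6 early endosome members and -0.83 for 14 ER and Golgi members. It was -0.61 for 4 late endosome and lysosome members, -0.27 for 3 members of exocytosis and 0.07 for 5 others. The groups overlapped widely, with Rab9 (-2.09) and Rab12 (0.33, SE 0.08) in the same one.

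Along the CDS the Harr reads lay near the start codon and were fewer beyond it. Exon segments of the 55 members in the length class were placed by the distance of their middle from the start. In segments centred within the first 100 nucleotides the pooled RPKM was 86.6 in WT, 96.6 in Chx and 78.3 in Harr, a Harr to Chx ratio of 0.810. RPKM is scaled to all reads of a library and CPM to its CDS reads, so the level of these ratios differs from that of the CDS ratios. Scaled to library totals, the median log2 CDS ratio of all genes for Harr against Chx was -0.60, against -0.05 on CPM. The Harr to Chx ratio of pooled RPKM was 0.326 for segments centred from 100 to 200 nucleotides and 0.141 from 200 to 300, the lowest value. It was 0.196 and 0.197 in the next 2 steps and 0.294 from 500 to 900 nucleotides. Segments were placed whole, so the steps are not windows of nucleotides. The step from 100 to 200 includes first segments that begin at the start codon, such as that of Rab3a, with 1032 of the 2839 Harr reads. The step from 300 to 400 includes the undivided CDS of Rab9 and of Rab9b. Last CDS segments had a ratio of 0.319 and middle segments of 0.186, so that the end of the CDS was also higher in Harr, relative to Chx, than its middle. Chx to WT stayed between 0.981 and 1.12 in these 6 steps.

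**Figure D5:**
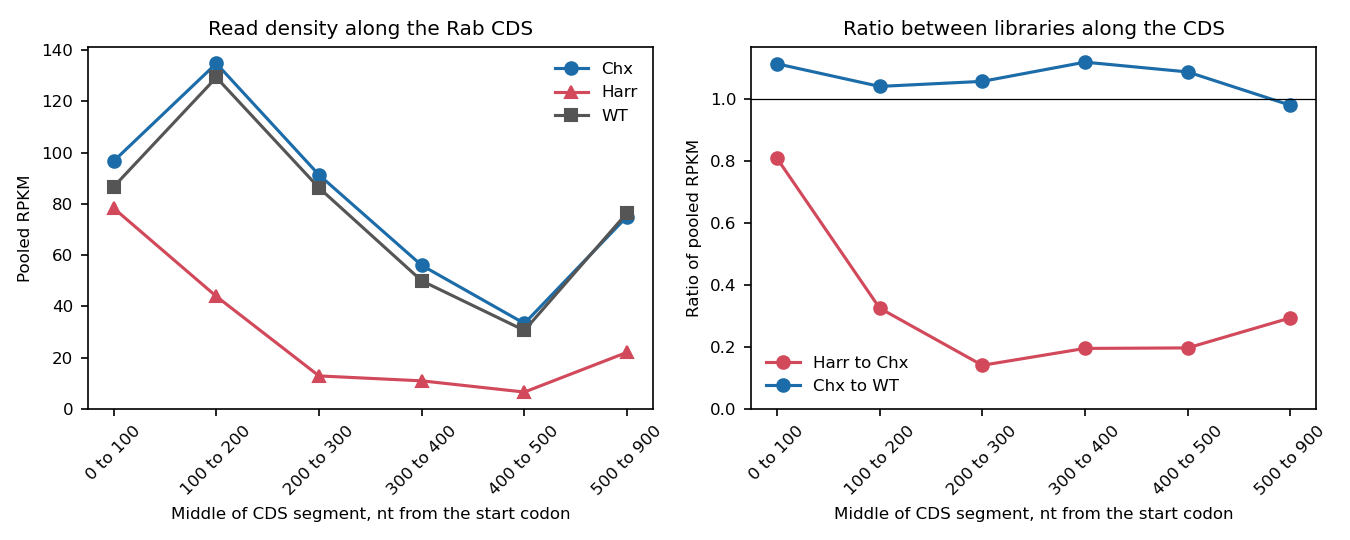
Pooled read density in RPKM (left) and its ratio between libraries (right) in CDS segments of 55 Rab genes, by the distance of the middle of the segment from the start codon in nucleotides. The Harr to Chx ratio goes from 0.810 in the first step to 0.141 in the third and is 0.294 in the last, while Chx to WT stays near 1.

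The segment that holds the start codon held much of the CDS reads of Harr. Over 40 members it covered a median of 13.3% of the CDS and held a median of 15.1% of the CDS reads in WT, 21.9% in Chx and 53.2% in Harr. Over all genes of the length class with more than 1 CDS segment the medians were 15.1%, 19.3% and 35.0%. The share was higher in Harr than in Chx in 29 of the 40 members, and the same count was not made over other genes. Rab1a, Rab1b and Rab4b, with 0 reads in this segment in every library, could not be higher. In Rab18 a first segment of 68 nucleotides held 470 of 2022 CDS reads in Chx, 359 of 484 in Harr (74.2%, Wilson 95% interval 70.1 to 77.9) and 230 of 1648 in WT. In Rab6a a first segment of 70 nucleotides held 17.1% of the CDS reads in WT, 23.1% in Chx and 68.1% in Harr. Rab7 had 10.9%, 8.46% and 55.6%. Thus Rab18, among the highest CDS ratios, had most of its Harr CDS reads in its first CDS segment. Of the other 2 highest against Chx, Rab8a had 55.6% there in Harr and 28.8% in Chx. Rab40b went the other way, with 8.33% in Harr (3 of 36 reads) and 20.8% in Chx.

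In contrast, the first CDS segments of Rab1a, Rab1b and Rab4b, of 14, 14 and 16 nucleotides, held 0 reads in every library. These segments end at an exon junction, which every read of at least 25 nucleotides that starts in them has to cross, and whether reads across junctions were aligned is not stated for these tables. The first segment of Rab3c, of 24 nucleotides, held 36, 26 and 10 reads in WT, Chx and Harr beside 4252, 4457 and 315 in the next segment. Pooled over these 4 members the density of the first segment was 0.0555 times that of the CDS in Chx and 0.0907 times in WT, whereas in 14 members with first segments of more than 130 nucleotides it was 1.66 and 1.61 times. The part of this in the low CDS ratios of Rab1a, Rab1b, Rab4b and Rab3c was not tested.

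The Rab coding regions of Chx were close to those of WT. The median CDS ratio of Chx against WT was 0.04 (95% interval -0.02 to 0.12) over 44 members, against 0.03 for all genes, with a range from -0.24 to 0.40. None of the 44 was past the fold in either direction, where the background was 0.201% of genes higher and 0.122% lower in Chx. The highest were Rab27b (0.40, SE 0.21), Rab5c (0.38, SE 0.04) and Rab33a (0.34, SE 0.08), a Rab of the Golgi, and the lowest Rab30 (-0.24, SE 0.09), Rab2b (-0.22, SE 0.07) and Rab9 (-0.15, SE 0.09). Rab5c had 3591 CDS reads in Chx and 2282 in WT, and its paralogs Rab5a and Rab5b had ratios of 0.12 and 0.13.

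In the 5′ UTR, Chx had more reads relative to the CDS than WT in most members. The median 5′ UTR odds ratio was 0.93 (0.66 to 1.31) for Chx against WT, against 0.67 over all genes and 0.73 in the length class, and 42 of 46 members were above 0. Past the fold and higher in Chx were 21 of 46 members, where the background was 30.2% of genes, and 1 was lower, where it was 1.09%. The highest were Rab40b (2.64, SE 1.26), on 12 reads in Chx and 1 in WT, Rab4a (2.51, SE 0.23), on 384 and 53 reads, and Rab3b (2.42, SE 0.19), on 421 and 70. The CDS ratios of Rab4a and Rab3b were 0.05 and -0.12. The one lower member was Rab27b, a Rab of secretory granules, at -1.25 (SE 0.50), on 24 reads in WT and 16 in Chx. On its most-read transcript Rab27b was at 0.70, so that its direction depends on the transcript. Rab29 (-0.57, SE 0.75) and Rab8b (-0.19, SE 0.76) were the next lowest. Recycling endosome members had the highest group median, 1.48 over 7 members, of which 6 were past the fold and higher.

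The 3′ UTR held few Rab reads. Its density was 0.782% of that of the CDS in WT, 0.549% in Chx and 5.02% in Harr. The log2 odds of 3′ UTR over CDS reads, compared in the same way, had a median of 3.79 for Harr against Chx and -0.71 (-1.14 to -0.48) for Chx against WT, with 6 of 39 members above 0 in the latter, against 3.76 and -0.93 over all genes. The 3′ UTR of Rab40c held 645 reads in WT, 832 in Chx and 123 in Harr on the transcript used, and 9, 8 and 16 on its most-read transcript, where those positions are CDS.

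The genes that switch Rabs on and off, and other small GTPases, were read in the same way from lists of 106 and 67 measured genes. Among the regulators, Gdi2, a GDP dissociation inhibitor, had a CDS level of 151 RPKM in WT, and Rabif, a factor that binds nucleotide-free Rabs, had 71.3 RPKM. The median CDS ratio of Harr against Chx was 0.26 over 87 regulators (95% interval 0.14 to 0.34), with 3 past the fold and higher (background 4.63%) and 0 lower (background 13.7%). It was 0.29 for 25 exchange factors, 0.21 for 31 GAPs, 0.39 for 25 effectors and -0.40 for 6 genes of prenylation and GDI. Their 5′ UTR odds ratio had a median of 1.89 for Harr against Chx, with 72 of 81 past the fold and higher, which is near the background of 88.8%. The median regulator thus lay on the other side of the median of all genes from the median Rab (-0.88), except for the genes of prenylation and GDI. The lists differ in length, with a median CDS of 2301 nucleotides for the regulators, and genes of the length class of the Rabs had -0.66.

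Other small GTPases, which have short coding regions like the Rabs, had a CDS ratio between. The highest were Arf3 (419 RPKM in WT) and Arf4 (304), of Golgi coats, and Cdc42 (357), of the actin skeleton. Their median CDS ratio of Harr against Chx was -0.61 over 58 genes (-0.82 to -0.44), with 16 past the fold and lower (background 13.7%) and 1 higher (background 4.63%), and their median 5′ UTR odds ratio was 3.07, with 53 of 57 past the fold and higher (background 88.8%). For Chx against WT their CDS ratio was 0.08 and their odds ratio 0.94, beside 0.04 and 0.93 for the Rabs. The intervals of the Rab medians held these values in each case.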

How the data were processed

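Per the labels, monosome footprints of 3 libraries (Chx, Harr, WT) were made with micrococcal nuclease and rRNA depletion, and groups follow the title and the recorded treatment, with which the free-text descriptions conflict. The authors deposited 9 tables in Plastid format, 1 per library and region, with 1 line per exon segment: unnormalized read counts, the coverage signal (count per nucleotide of segment) and RPKM. Per the file headers, reads of 25 to 100 nucleotides on mm10, without ribosomal reads and duplicates, were counted at their 5′ end with offset 0. The study's methods name Rsubread before counting by Plastid, and TopHat on the transcriptome, with multiple hits kept, for the ORF search in these libraries. Which alignment underlies these tables is not stated.

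Only counts were used. Segments were summed per transcript, joined to GENCODE M21 (99.4% of identifiers matched), and RPKM was recomputed. Ratios and odds ratios had 0.5 added to each count. CDS ratios needed 100 CDS reads in the 3 libraries together, and odds ratios 10 reads in each region in the pair. Medians carry order-statistic 95% intervals over genes. Python 3.11.15 with pandas 2.3.3, numpy 2.4.6, SciPy 1.17.1 and matplotlib 3.10.9 was used, and the formulas were tested on simulated data. Named are the 12 highest members in WT, the 3 highest and 3 lowest values of each comparison, members at 0, paralogs, the 3 densest 5′ UTRs and the 3 highest genes of each list, of which 1 is not reported here. Other members were named after their values were seen, as examples. Members, lists and compartment groups were chosen with earlier results of these data known. Alternatives were other transcripts, scalings, minimums, pseudocounts and subsets of members. Header totals were 9754412 to 35722483 reads, and amplified reads are not independent molecules, so intervals cover counting error only.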

Additional observations from a re-analysis of the deposited data

How the results depend on the processing

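Of 183 values recomputed under the alternatives, 126 stayed within the 95% interval of the reported value, or within 1.5 times it for counts of members, 57 moved and none changed sign where the reported interval excluded 0. All 18 recomputed medians of the 5′ UTR:CDS odds ratio were among those that stayed. No paired analysis was possible because each treatment has 1 library, and leaving out a replicate was not possible for the same reason. Values below are for Chx, Harr and WT in this order. On the most-read transcripts the 5′ UTR shares were 17.0%, 67.0% and 8.73%, the CDS shares 82.2%, 28.6% and 89.7%, the 3′ UTR shares 0.828%, 4.39% and 1.60%, and 0 of 46 members were past the fold and lower in Chx than in WT for the 5′ UTR:CDS ratio, beside 1.02% of all genes. With the 52 members that share at most 10% of the words of their whole transcript, the 5′ UTR shares were 14.5%, 62.9% and 7.91%, the CDS shares 83.9%, 31.8% and 89.6%, the 3′ UTR shares 1.67%, 5.30% and 2.45%, and the summed CDS levels 4391, 2199 and 4272 CPM. With the 46 members whose UTRs overlap no CDS, the 5′ UTR shares were 16.2%, 66.0% and 8.76%, the 3′ UTR shares 0.644%, 4.34% and 1.36%, and the CDS share in WT was 89.9%. Without Rab3a, the member with the most reads, the 5′ UTR shares were 17.0%, 66.4% and 9.02%, the CDS shares 81.1%, 28.3% and 88.2%, the 3′ UTR shares 1.83%, 5.30% and 2.75%, and the summed levels 4088, 2138 and 4073. With header totals the summed levels were 2893, 981 and 2746 per 1000000 reads, and the median CDS ratio of Harr was -1.43 against Chx and -1.42 against WT. Relative to mitochondrially encoded CDS reads it was -2.26 and -2.22, with 42 and 40 of 44 members past the fold and lower, beside 73.0% and 65.8% of all genes. Without the segment of the start codon it was -1.32 and -1.29 over 40 members, against -0.07 and -0.03 for all genes, with no value for the length class. Then 27 and 26 members were past the fold and lower, beside 20.6% and 21.5% of all genes, and 1 member, Rab40b, was past it and higher in Harr than in WT, beside 7.71%. With no minimum of reads, 1 of 59 members was past the CDS fold and higher in Harr than in Chx (4.34% of all genes), 1 was higher in Harr than in WT (4.61%), 1 was lower in Chx than in WT (0.605%), and 18 and 20 were lower in Harr (7.66% and 8.05%). With at least 50 reads, 0 of 38 members were past the fold and lower in Chx than in WT for the 5′ UTR:CDS ratio, beside 0.727% of all genes. Header totals and mitochondrial reads change the scaling by construction, and the cause of the other shifts was not tested. Depth was lowest in Harr, where 7 members had no CDS read, against 2 in Chx and 4 in WT.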
